A study of Homo sapiens with 12 samples.

Results

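RNA bound by dSpCas9 was examined here in the mRNAs of the cytoskeleton: tubulins, kinesins, dynein and dynactin subunits, actins, myosins and the proteins that cross-link or remodel actin filaments. Members were all peaks of the 4 deposited peak lists that overlapped, on the same strand, an exon (GENCODE version 44) of a protein-coding gene whose symbol belongs to these families. There were 231 such peaks of 18128 in all, of which 17693 lay in exons of protein-coding genes. They fell in 39 of the 182 genes that the symbols matched, and no member peak overlapped a second protein-coding gene on its strand.

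The protein was dSpCas9, the *Streptococcus pyogenes* nuclease with its cutting activity removed, without a nuclear localization signal and expressed with no guide RNA. It carried a V5 or a 3xFLAG tag and was introduced by transfection into HEK 293T, a human embryonic kidney line (Lenti-X 293T). The eCLIP assay cross-links protein to RNA with UV light, recovers the tagged protein by immunoprecipitation (IP) and sequences the RNA attached to it. The dose was 400 mJ/cm2, which the labels give for 2 exposures and the methods name with no number of exposures. For each tag there were 2 IP libraries, 2 size-matched input libraries and 2 libraries of the same IP from cells with empty vector, 12 libraries in 6 groups. The titles of the empty vector libraries hold both the word IP and the word input, and they are taken as IPs, as the methods of the study describe them. Each list compares the 2 IP libraries of a tag with 1 of its controls, so the lists of a tag share their IP libraries. A peak has 1 value per list: the log2 of the geometric mean ratio of IP to control over both replicates (enrichment), with no value per replicate. No test between groups was therefore possible, the spread between replicates and the depth are unknown, and every comparison made here is a description of counts and values. The lists hold only peaks with an enrichment of at least 3 and a −log10 p of at least 3.01, so a gene without a peak had none past these limits, which is not the same as no contact.

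Microtubules are hollow polymers of alpha- and beta-tubulin, seeded by the gamma-tubulin ring. Kinesins carry cargo along them, mostly toward the plus end, and cytoplasmic dynein, with its cofactor dynactin, carries cargo toward the minus end. Actin filaments are branched by the ARP2/3 complex, pulled by myosins, cut or coated by cofilins and tropomyosins, and tied into networks by filamins, alpha-actinins and spectrins. By these roles 96 of the 182 genes were counted as microtubule genes and 75 as actin genes. The other 11, among them the cytolinker PLEC and the autophagy gene MAP1LC3B, belong to neither group.

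A reproducible interval, after the rule of the study's methods, is the part shared by peaks of all 4 lists, each overlap covering at least 50% of the first interval. Over all genes the rule as applied here gave 749 intervals, 742 of them in 402 protein-coding genes. Both counts are larger than the study reports for its intersection, so these intervals are not the study's own set of peaks. The cytoskeleton mRNAs held 8 such intervals, in 7 genes. Their sequences are printed because they are the places where peaks of both tags over both controls overlap. They are read from hg38 in the direction of the mRNA (T for U), whole for intervals in the coding sequence (CDS), and as the central 30 bases for intervals in the 3′ UTR. Capitals mark a GU-loop:5nt-stem, a structure that SpCas9 also binds in its guide RNA: a GU whose U is mostly unpaired, directly followed by 5 paired bases, as called from predicted base pairing.
ACTR1A 3′ UTR, exon 11 of 11, chr10:102480123-102480152, minus strand: ctgctggttccaggacctcgctttccatct
KIF1A CDS, exon 24 of 49, chr2:240761332-240761379, minus strand: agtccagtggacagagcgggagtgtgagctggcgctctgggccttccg
KIF1A CDS, exon 24 of 49, chr2:240761264-240761331, minus strand: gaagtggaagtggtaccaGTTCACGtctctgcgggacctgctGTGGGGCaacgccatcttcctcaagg
DYNC1LI2 CDS, exon 4 of 13, chr16:66742506-66742604, minus strand: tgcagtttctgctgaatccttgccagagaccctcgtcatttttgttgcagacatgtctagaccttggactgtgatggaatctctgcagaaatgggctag
DYNC2I2 CDS, exon 5 of 9, chr9:128635658-128635735, minus strand: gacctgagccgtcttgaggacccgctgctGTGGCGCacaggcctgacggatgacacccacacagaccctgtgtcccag
MYO1C 3′ UTR, exon 32 of 32, chr17:1464471-1464500, minus strand: accaggtgggaaaagcgcctctgccagagt
TPM4 3′ UTR, exon 8 of 8, chr19:16102282-16102311, plus strand: tgagccgatatcgcaccacagcgctccagc
SPTAN1 CDS, exon 11 of 57, chr9:128580991-128581041, plus strand: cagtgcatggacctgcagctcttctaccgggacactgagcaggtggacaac

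Of these 8 intervals, 5 lay in coding sequence and 3 in 3′ UTRs, and 4 of the 7 genes were microtubule genes. The motif was called in 2 of the 8 (25.0%), the KIF1A interval with 2 motifs and the DYNC2I2 interval with 1, and in 36.5% of the 742 reproducible intervals of all protein-coding genes. These shares are not weighted by length, and the 8 intervals were longer (median 72.5 nt, against 58 nt). The motif was called more often in longer peaks.

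Cytoskeleton genes had peaks at shares above those of all protein-coding genes in every list, by margins within counting error. A peak in any list was found for 39 of 182 genes (21.4%, 95% Wilson interval 16.1 to 27.9, which like all such intervals here covers counting error only), against 17.4% of 20046 protein-coding genes. Over the V5 input, 32 genes had a peak (17.6%, against 13.1% of all). Over the V5 empty vector, 15 genes had a peak (8.24%, against 6.49%). Over the FLAG input there were 28 genes (15.4%, against 12.7%), and over the FLAG empty vector 12 genes (6.59%, against 4.84%). Peaks over both inputs were found in 21 genes (11.5%, against 8.97%), and reproducible intervals in 7 genes (3.85%, interval 1.88 to 7.73, against 2.01%). In each of these 7 counts the Wilson interval held the share of all genes. Genes with a peak had longer mRNAs (median 6116 nt) than cytoskeleton genes without a peak (3579 nt), as was so over all protein-coding genes (3817 against 2695.5 nt).

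The share of genes with a peak varied by family, beside 17.4% of all protein-coding genes, and no interval was computed for these shares. The cross-linkers had the largest share among families with at least 10 genes, with 7 of 12 genes (58.3%) and 50 peaks. The other families of that size had shares between 9.09% and 27.3%, nearer the general share. Dynein and dynactin followed with 6 of 22 genes and 66 peaks, and myosins with 8 of 38 genes and 26 peaks. Kinesins had peaks in 6 of 42 genes, but 54 peaks. The filament binding genes had 2 of 10, tubulins 3 of 21 and ARP2/3 1 of 11. Peaks were concentrated in few mRNAs: KIF1A with 27, ACTR1A with 21 and KIF1C with 19 held 67 of the 231 (29.0%). These counts repeat places found in several lists: with overlapping or touching peaks joined, the 3 genes had 13, 10 and 12 places. The median was 3 peaks per gene with a peak, as over all protein-coding genes, where the highest count was 119.

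**Figure D1:**
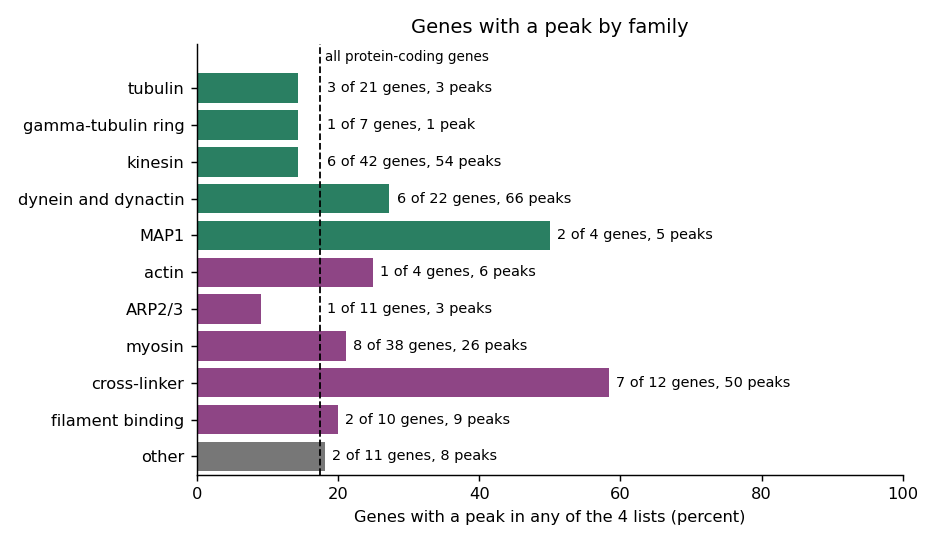
Percent of the genes of each family (bars; green, microtubule; purple, actin; grey, other) with a peak in any of the 4 lists, with the number of genes and peaks beside each bar. The dashed line is the share of all protein-coding genes (17.4%). Cross-linkers (7 of 12) and the genes counted as MAP1, with MAP10 among them (2 of 4), lie farthest above it and ARP2/3 (1 of 11) farthest below.

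Among microtubule genes the highest enrichment was in ACTR1A, which encodes the actin-related protein ARP1 that forms the short filament of dynactin. Its highest peaks were 5.71 over the V5 input, 4.86 over the V5 empty vector, 5.55 over the FLAG input and 5.33 over the FLAG empty vector. By its V5 and FLAG maxima over input, averaged (5.63), it stood at rank 27 of the 1798 protein-coding genes with peaks over both inputs. The 4 lists met in its 3′ UTR (chr10:102480108-102480167, 699 nt after the stop codon of a 1637-nt 3′ UTR), where the V5 value over the empty vector was 3.16, lower than the other 3 values. The highest V5 peak over the empty vector was instead in the 5′ UTR, where the values were 4.34 over the V5 input, 4.86 over the V5 empty vector and 3.86 over the FLAG input, and where no peak over the FLAG empty vector was listed. In all, ACTR1A had 3 peaks in the 5′ UTR, 8 in the CDS and 10 in the 3′ UTR. Its close relative ACTR1B, which can take the same place in dynactin, had 5 peaks, all in the 3′ UTR and in 2 places, with maxima of 4.05 over the V5 input, 3.86 over the V5 empty vector and 3.57 over the FLAG input. ACTR1B had no peak over the FLAG empty vector.

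KIF1A, a kinesin of neuronal vesicle transport, had the highest kinesin values: 4.63 over the V5 input, 4.91 over the V5 empty vector, 5.24 over the FLAG input and 4.42 over the FLAG empty vector. All of these maxima lay in exon 24, in 2 adjoining reproducible intervals. The upstream interval, of 48 nt, runs from 2 nt inside the preceding intron to codon 721 of 1791. The downstream interval, of 68 nt, spans codons 721 to 744, carries both motifs and had values of 4.17, 4.48, 5.24 and 4.42 in the same order of lists. In both FLAG lists a single peak covered the pair, so the FLAG values of the pair are the same measurement. Besides exon 24, KIF1A had 10 peaks in its 3′ UTR, the highest at 4.23, and it stood at rank 132 of 1798.

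Other kinesins had lower values and fewer lists. KIF1C, a kinesin of the same subfamily, had 19 peaks in 12 bound regions (overlapping or touching peaks of any list joined) with maxima of 4.00 over the V5 input, 3.60 over the V5 empty vector and 3.72 over the FLAG input, and none over the FLAG empty vector. Unlike KIF1A, which had no 5′ UTR peak, KIF1C had 6 peaks in its 5′ UTR, 12 in the CDS and 1 in the 3′ UTR. KIF5B, a heavy chain of conventional kinesin, had 5 peaks, with maxima of 3.67 over the V5 input, 3.07 over the V5 empty vector and 3.40 over the FLAG input. KIF1B (3.89), KIF3B (4.11) and KIF5C (3.79) had 1 peak each, over the V5 input only. The other 36 kinesin genes had none.

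The dynein subunits with peaks were spread over the cytoplasmic and the ciliary motor. DYNC1LI2, a light intermediate chain that links cytoplasmic dynein to its cargo adaptors, had all 11 of its peaks in the CDS although its 3′ UTR (2832 nt) is longer than its CDS (1476 nt). Its reproducible interval spans codons 121 to 154 of 492, with values of 4.13 over the V5 input, 4.15 over the V5 empty vector, 4.36 over the FLAG input and 4.01 over the FLAG empty vector, the narrowest range of the 8 intervals. DYNC2I2, an intermediate chain of the dynein that returns cargo from the tip of cilia, had 17 peaks in a mRNA of 1823 nt, all in the CDS. At its reproducible interval (codons 246 to 271 of 536, ending at the edge of exon 5) the V5 value over the empty vector, 4.79, stood apart from 3.39 over the V5 input, 3.39 over the FLAG input and 3.15 over the FLAG empty vector. DYNC1H1, the heavy chain with the motor domain, had 11 peaks, 2 in the 5′ UTR and 9 in the CDS, with maxima of 4.33 over the V5 input, 4.03 over the V5 empty vector and 4.23 over the FLAG input. DYNC2I1, the partner of DYNC2I2, had 1 peak of 3.20 over the V5 input.

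Tubulin genes had a peak at the same share as kinesins (3 of 21 and 6 of 42 genes, 14.3% each, against 17.4% of all protein-coding genes). The contrast was in the peaks, which were low and numbered 3, against 54 in kinesins. Tubulin mRNAs with a peak were short (1563 to 1922 nt) beside KIF1A (9131 nt) and KIF1C (7917 nt). DYNC2I2, however, had 17 peaks in 1823 nt, and a part of length was not tested. TUBB2B had 1 peak (3.17 over the V5 input, in the 3′ UTR), and TUBB4B (3.21) and TUBB6 (3.49) had 1 each over the FLAG input, in the CDS. None of the 21 tubulin genes had a peak in a second list. Of the 25-nt words in the TUBB4B and TUBB6 peaks, 20.0% and 35.7% also occur in transcripts of other genes, mainly other beta-tubulins, so the gene they came from is uncertain. The gamma-tubulin ring gene TUBGCP4 had 1 peak in its 5′ UTR, of 3.16 over the V5 input. The 4 genes counted as MAP1, which encode microtubule-stabilizing proteins, were MAP1A, MAP1B, MAP1S and MAP10, the last taken in by its symbol. Of these, MAP1B had 2 peaks with a maximum of 3.76 over the V5 input. MAP1S had 3, with maxima of 3.71 over the V5 input and 3.74 over the FLAG input.

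**Figure D2:**
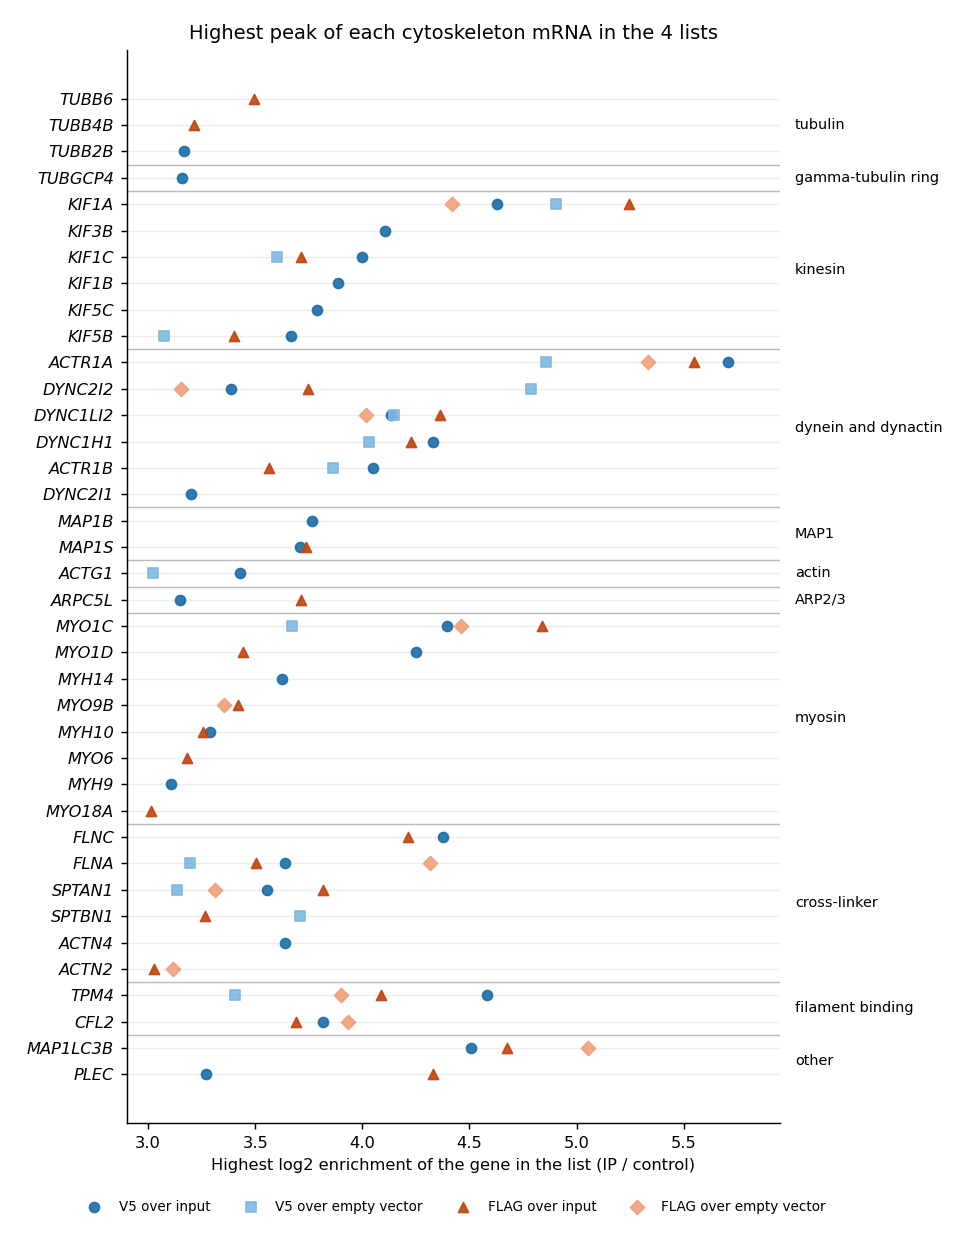
Highest enrichment (log2 of IP over control) in each of the 4 lists for 38 of the 39 genes with a peak, in rows by family; a missing symbol means that the list holds no peak in that gene. ACTR1A and KIF1A lie farthest to the right, each with 4 symbols above 4.4, and the tubulin genes have 1 symbol each, below 3.5.

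Among actin genes the highest enrichment was in MYO1C, an unconventional myosin that tethers membranes to actin. Its values were 4.40 over the V5 input, 3.67 over the V5 empty vector, 4.84 over the FLAG input and 4.46 over the FLAG empty vector, all at 1 place in the 3′ UTR (chr17:1464438-1464533, 1196 nt after the stop codon of a 1543-nt 3′ UTR). With a mean of 4.62 over both inputs it stood at rank 257 of 1798. TPM4, a tropomyosin that coats actin filaments, had 1 peak per list, all at the same place in the 3′ UTR, of 4.58 over the V5 input, 3.41 over the V5 empty vector, 4.09 over the FLAG input and 3.90 over the FLAG empty vector. Between 13.2% and 19.7% of the 25-nt words in these TPM4 peaks also occur in transcripts of other genes, so some of the reads behind them may be shared. SPTAN1, the alpha chain of the spectrin lattice under the plasma membrane, had 9 peaks, all in the CDS. Its reproducible interval (codons 465 to 481 of 2477) had values of 3.55, 3.13, 3.76 and 3.31 in the same order of lists, all below 4.

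The filamins, long homodimers that hold actin filaments at angles, included FLNA and FLNC, which had no peak in a UTR. FLNA had 11 peaks in all 4 lists, with maxima of 3.64 over the V5 input, 3.20 over the V5 empty vector, 3.50 over the FLAG input and 4.32 over the FLAG empty vector, and was the only gene of the 8 with peaks in every list that had no reproducible interval. Its highest peak in each FLAG list lay outside the exons of the canonical transcript, in an exon of another isoform. FLNC, with the highest value among the cross-linkers, had 8 peaks, all in the CDS, with maxima of 4.38 over the V5 input and 4.21 over the FLAG input, and none over either empty vector. Of the other actin genes, CFL2, a cofilin of muscle, had 5 peaks in its 3′ UTR with maxima of 3.82 over the V5 input, 3.69 over the FLAG input and 3.93 over the FLAG empty vector. ARPC5L, the gene of the 11 counted for ARP2/3 that had peaks, had 3, with maxima of 3.15 over the V5 input and 3.72 over the FLAG input.

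MAP1LC3B, the LC3 protein of autophagosomes, matched the symbols through its name and belongs to neither group. It had 2 places in the 3′ UTR, each with a peak over the V5 input (4.51 and 3.90), the FLAG input (4.68 and 3.92) and the FLAG empty vector (5.05 and 4.11), and none over the V5 empty vector. PLEC, which ties intermediate filaments to the other filament systems, had 1 place in the CDS with 3.27 over the V5 input and 4.33 over the FLAG input.

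**Figure D3:**
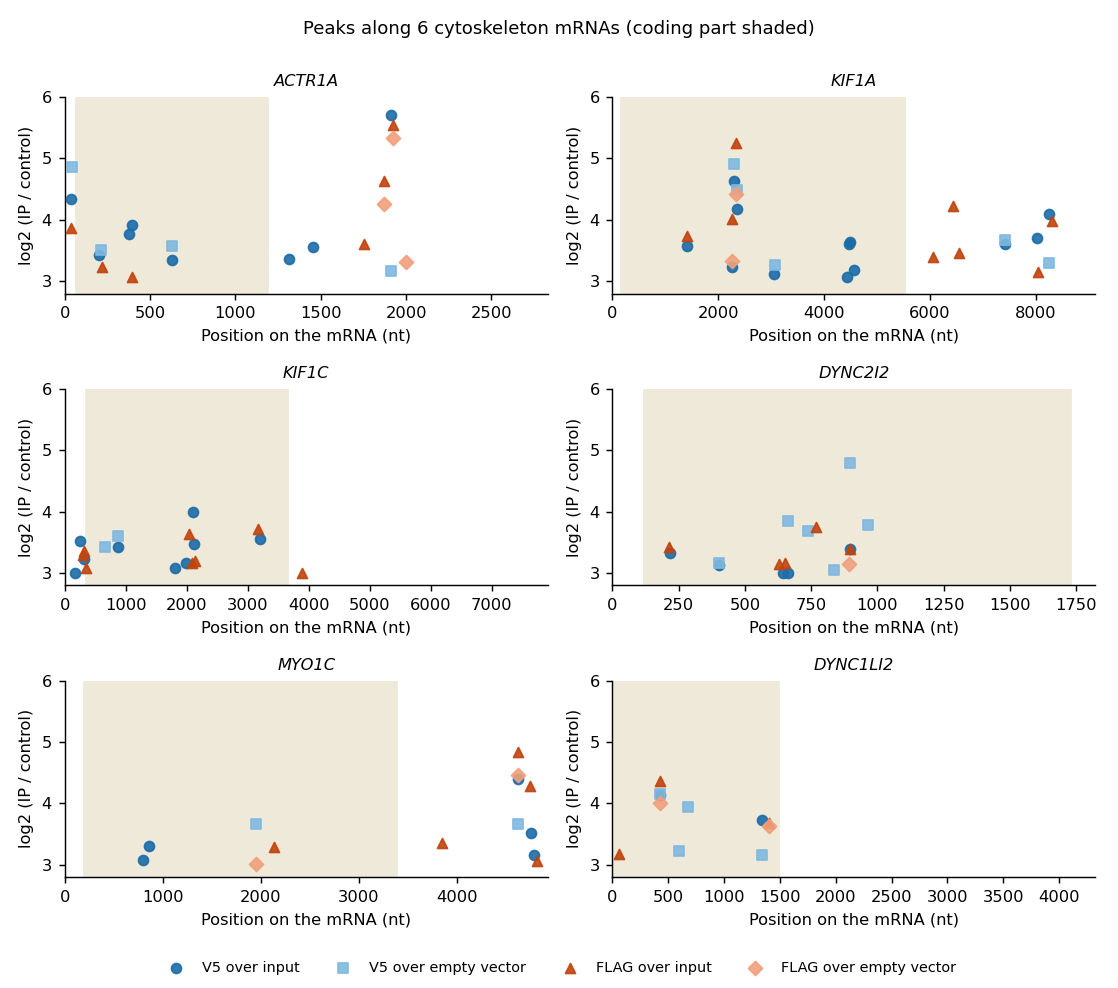
Position of each peak's midpoint on the canonical mRNA (x axis, nt from the 5′ end) against its enrichment (y axis, log2 of IP over control) for 6 mRNAs, with the coding part shaded and a symbol for each list. The symbols of all 4 lists share a position, though not a height, in the 3′ UTR of ACTR1A and MYO1C and in the coding sequence of KIF1A, DYNC2I2 and DYNC1LI2, and KIF1C has peaks before its start codon.

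By gene region, microtubule and actin mRNAs differed at the 5′ end when all peaks were counted. Of 129 microtubule peaks, 16 lay in 5′ UTRs (12.4%, interval 7.78 to 19.2), in 6 of 18 genes: KIF1C with 6 peaks, ACTR1A and KIF5B with 3 each, DYNC1H1 with 2, and KIF5C and TUBGCP4 with 1 each. Of 94 actin peaks, 1 lay in a 5′ UTR (1.06%, interval 0.188 to 5.78), that of MYO6, a myosin that walks toward the minus end of actin, at 3.18 over the FLAG input. Over all protein-coding genes the share was 8.01%. The intervals of both groups do not overlap, but peaks of a mRNA are not independent and the same place is often in several lists. With overlapping peaks counted once, 9 of 71 microtubule regions (12.7%, interval 6.81 to 22.4) and 1 of 57 actin regions (1.75%, interval 0.310 to 9.29) were in 5′ UTRs, and these intervals overlap. The difference lay in the input lists, with 9 of 55 microtubule peaks in 5′ UTRs over the V5 input and 6 of 41 over the FLAG input. Over the V5 empty vector it was 1 of 25 (4.00%, against 9.12% of all genes' peaks), and over the FLAG empty vector 0 of 8 (against 3.43%). Actin genes had 0 of 10 in each empty vector list. With only the highest peak of each gene, the 5′ UTR shares were 11.1% of 18 microtubule genes and 5.26% of 19 actin genes, and the larger gaps were then in the CDS (61.1% and 36.8%) and the 3′ UTR (27.8% and 52.6%). Among peaks with an enrichment of at least 4 (27 and 12 peaks) the CDS (59.3% and 25.0%) and the 3′ UTR (33.3% and 66.7%) also had larger gaps than the 5′ UTR (7.41% and 0%). The 5′ UTR took 3.21% of mRNA length at the microtubule peaks' genes and 4.06% at the actin peaks' genes, each weighted by the number of peaks.

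The coding sequence held most peaks of both groups, 83 of 129 microtubule peaks (64.3%, interval 55.8 to 72.1) and 58 of 94 actin peaks (61.7%, interval 51.6 to 70.9), against 52.7% over all protein-coding genes. Coding sequence took 56.2% of mRNA length in the first group and 70.6% in the second. The 3′ UTR held 30 microtubule peaks (23.3%, interval 16.8 to 31.3) and 32 actin peaks (34.0%, interval 25.3 to 44.1), against 38.0% over all genes, while it took 40.6% and 25.3% of mRNA length. The 3′ UTR share of the actin genes rested in part on places present in several lists: with overlapping peaks counted once it was 26.3%, beside 25.4% for the microtubule genes. Of the 30 microtubule peaks in 3′ UTRs, 10 were in ACTR1A and 10 in KIF1A, and without these 2 genes the share was 12.3%. Peak midpoints lay in the first 10% of the mRNA for 28 of 129 microtubule peaks (21.7%) and 2 of 91 actin peaks (2.20%), against 17.7% over all genes. Most of these 28 were in KIF1C, ACTR1A and DYNC1LI2, where some places recur in several lists, and they were not counted by place. In the last 10% there were 3 microtubule peaks (2.33%) and 13 actin peaks (14.3%), against 5.22%. Most of these 13 were in the 3′ UTR of MYO1C, where the same places recur in several lists, so this contrast rests on few genes.

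**Figure D4:**
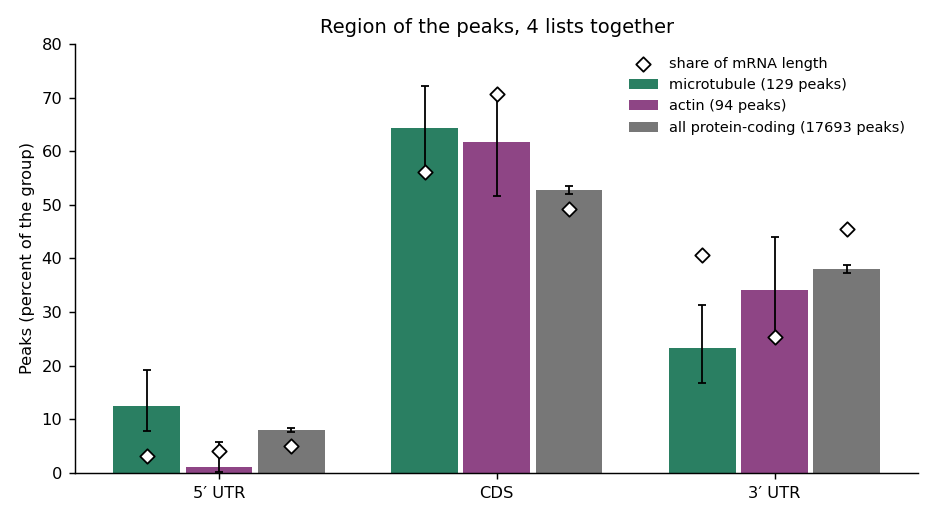
Percent of the peaks of the 4 lists in the 5′ UTR, CDS and 3′ UTR of the canonical transcript for microtubule genes, actin genes and all protein-coding genes; error bars are 95% Wilson intervals (counting error only) and diamonds the share of mRNA length that the region takes in the same genes, weighted by peaks. In 5′ UTRs the microtubule bar (12.4%) lies above its diamond (3.21%) and the actin bar (1.06%) below its own (4.06%); in 3′ UTRs the microtubule bar (23.3%) lies below its diamond (40.6%).

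By list, the microtubule genes took a larger part of the V5 peaks than of the FLAG peaks. They held 55 of the 94 cytoskeleton peaks over the V5 input and 25 of the 35 over the V5 empty vector, but 41 of 82 over the FLAG input and 8 of 20 over the FLAG empty vector. Counted by gene the difference was smaller, with 16 microtubule and 14 actin genes over the V5 input, 8 and 7 over the V5 empty vector, 11 and 15 over the FLAG input, and 4 and 7 over the FLAG empty vector. In the V5 empty vector list, ACTR1A, KIF1A, DYNC1LI2 and DYNC2I2 together held 19 of those 25 microtubule peaks. Every one of the 39 genes had a peak over at least 1 input: 21 over both, 11 over the V5 input alone and 7 over the FLAG input alone. Peaks over inputs were as common in general: of all 3488 protein-coding genes with a peak, 2620 had one over the V5 input, 2549 over the FLAG input and 1798 over both. Peaks over an empty vector were found in 19 genes, 8 of them with both tags. By list these were 15 genes with V5 and 12 with FLAG, beside 1301 and 971 of the 3488 genes.

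The 231 peaks joined into 131 bound regions, of which 76 were in 1 list, 35 in 2, 13 in 3 and 7 in all 4 (5.34%, against 7.39% of 8468 regions in all protein-coding genes). Of 86 regions with a peak over the V5 input and 74 over the FLAG input, 37 were shared, which is 43.0% of the first and 50.0% of the second (49.4% and 50.7% over all genes). For microtubule genes 23 regions were shared, 45.1% of the V5 and 62.2% of the FLAG regions. For actin genes 11 were shared, 34.4% and 32.4%. The median enrichment of cytoskeleton peaks was close to that of all exonic peaks over the V5 input (3.52 of 94 peaks, against 3.60), the V5 empty vector (3.60 of 35, against 3.62) and the FLAG empty vector (3.76 of 20, against 3.59). Over the FLAG input it was 3.40 of 82 peaks (95% order-statistic interval 3.32 to 3.60), against 3.61 for all. Peaks of at least 4 were a smaller part of the cytoskeleton peaks than of all exonic peaks over the V5 input (17.0% against 26.7%), the V5 empty vector (17.1% against 28.2%) and the FLAG input (17.1% against 28.2%), and a larger part over the FLAG empty vector (40.0%, 8 of 20, against 26.4%).

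For the 21 genes with peaks over both inputs, the highest V5 and FLAG values differed in either direction. FLAG was higher in 9 genes and V5 in 12, and the median of FLAG minus V5 was −0.06 (order-statistic interval −0.16 to 0.26), beside −0.04 over all 1798 such genes. Genes that were high with V5 tended to be high with FLAG (Pearson's r = 0.748, Spearman's rho = 0.611, across 21 genes, which are not replicates and share their libraries; r = 0.505 over the 1798). FLAG exceeded V5 most in PLEC (by 1.06), KIF1A (0.61) and ARPC5L (0.57). V5 exceeded FLAG most in MYO1D, an unconventional myosin (4.25 against 3.44, a difference of −0.81), TPM4 (−0.50) and ACTR1B (−0.49). How large such differences are beside the spread between replicates is not known.

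**Figure D5:**
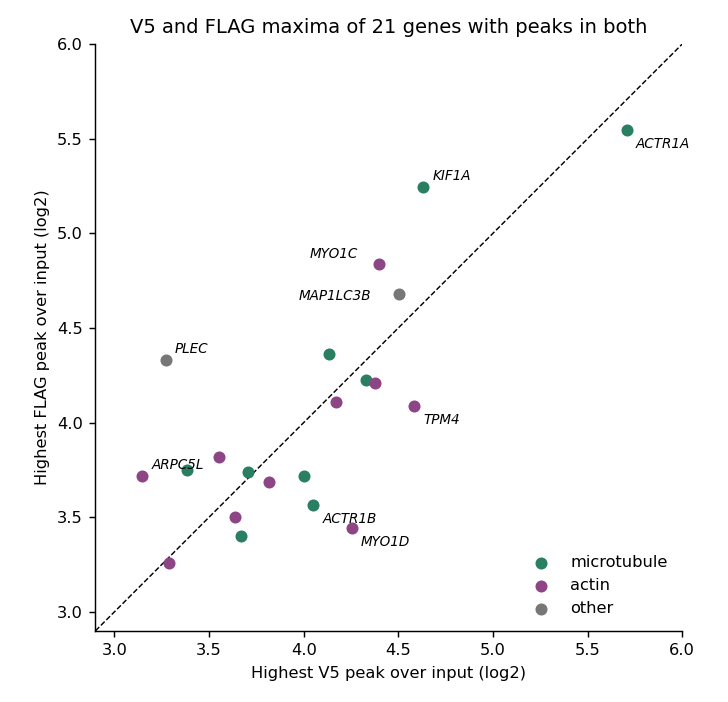
Highest FLAG peak over the FLAG input against the highest V5 peak over the V5 input (log2 of IP over control) for the 21 cytoskeleton genes with peaks in both lists; the dashed line marks equal values. There are 9 genes above the line and 12 below it, with PLEC farthest above, MYO1D farthest below and ACTR1A highest with both tags.

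Genes known for high transcript levels in many cell lines were counted apart. Of 18 such genes (17 of the cytoskeleton, and GAPDH), 7 had a peak in any list (38.9%, against 17.4% of all protein-coding genes). A peak was thus not rarer among these 18 than among all annotated genes. The 17.4% counts genes whether or not they are transcribed in these cells, so no comparison with other transcribed genes was made. The 11 without a peak (61.1%) were the actin gene ACTB, the tubulin genes TUBA1A, TUBA1B, TUBA1C, TUBB and TUBB2A, the cofilin gene CFL1, the profilin gene PFN1, the tropomyosin gene TPM3, the ARP2/3 gene ARPC2 and the dynein light chain gene DYNLL1. Transcript levels were not measured here, and reads of the near-identical actins and tubulins may be lost or shared when they are placed on the genome. The other 7 had peaks but no reproducible interval. Of all protein-coding genes 2.01% had such an interval, so none among 18 genes is near the general share. ACTG1, the other cytoplasmic actin, had 5 peaks over the V5 input (at most 3.43) and 1 over the V5 empty vector (3.02), and none with FLAG. Both of the member peaks at the top of the p-value scale (−log10 p of 400) were in the 3′ UTR of ACTG1, at enrichments of 3.29 and 3.43. Of a coding peak of ACTG1 (3.03), all 15 of the 25-nt words also occur in other genes, mostly actin pseudogenes. FLNA had the 11 peaks given before. MYH9 and MYH10, heavy chains of nonmuscle myosin, had at most 3.10 (V5 input, 1 peak) and 3.29 (V5 input) with 3.26 (FLAG input). ACTN4, an alpha-actinin, had 1 peak of 3.64 over the V5 input, TUBB4B had the FLAG peak given above, and GAPDH had 1 peak of 3.72 over the FLAG input.

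A list of 70 other genes of the cytoskeleton and its regulators, outside the symbols used here, had a peak in 25 genes (35.7%, against 17.4% of all protein-coding genes) and a reproducible interval in 8 (11.4%, against 2.01%). By list there were 21 genes over the V5 input (30%, against 13.1%), 11 over the V5 empty vector (15.7%, against 6.49%), 19 over the FLAG input (27.1%, against 12.7%) and 12 over the FLAG empty vector (17.1%, against 4.84%). The 70 genes were chosen with earlier results of these data known, and no interval was computed for their shares. The shares of all protein-coding genes again count genes whether or not they are transcribed in these cells. How the 70 compare with other transcribed genes was not tested. Among the 8 with a reproducible interval were the dynactin subunits DCTN3, with 12 peaks and a maximum of 4.75 over the FLAG input, and DCTN5, with 13 peaks and 4.48 in the same list. BICD2, an adaptor that joins dynein and dynactin to cargo, had 28 peaks, with maxima of 4.92 over the V5 input, 5.41 over the V5 empty vector, 5.43 over the FLAG input and 4.97 over the FLAG empty vector. The others were MAP4, DIAPH1, WASF2, ADD3 and LMNB2. DCTN1, the largest dynactin subunit, had 11 peaks in 3 lists and no reproducible interval.

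The peaks of the cytoskeleton mRNAs resembled exonic peaks in general in length and base composition. Their median length was 79 nt (74 nt over all) and their median GC content 61.5% (59.6%). The GU-loop:5nt-stem was called in 88 of 231 peaks (38.1%, interval 32.1 to 44.5), against 41.3% of all exonic peaks weighted to the same lengths. In microtubule genes it was called in 53 of 129 peaks (41.1%, interval 33.0 to 49.7, against 39.7%). By list this share ran from 32.7% of 55 peaks over the V5 input to 64.0% of 25 over the V5 empty vector. All exonic peaks of these lists had 41.7% and 39.6%, not weighted by length. In actin genes the share was 29 of 94 (30.9%, interval 22.4 to 40.8, against 42.4%), and the intervals of both groups overlap. With overlapping peaks counted once, 21 of 57 actin regions (36.8%, interval 25.5 to 49.8) and 32 of 71 microtubule regions (45.1%, interval 34.0 to 56.6) carried the motif, against 47.4% of 8468 regions in all protein-coding genes, a share that both intervals hold. Of 143 coding peaks, 68 reached or came within 2 nt of an exon edge (47.6%, interval 39.5 to 55.7), against 44.9% of all coding peaks, with 39 of 83 in microtubule and 29 of 58 in actin genes.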

How the data were processed

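Groups came from the sample labels: IP, size-matched input or IP after empty vector, for V5 and for FLAG, with 2 replicates each. The authors processed the reads with their eCLIP pipeline on hg38, and the submitters' processing notes name UMI-tools 1.0.0, cutadapt 1.14, STAR 2.4.0i and SAMtools 1.6. The authors merged the replicates by the Irreproducible Discovery Rate and deposited 2 values per peak, a log2 enrichment (IP over control, geometric mean of the replicates) and a −log10 p-value, which stops at 400 and was used only as a threshold. Depth is not given in the sources used here.

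Peaks were assigned by an overlap of 1 nt with an exon (GENCODE version 44, Ensembl 110), and regions by the peak midpoint on the canonical transcript. Lists were intersected within each tag and then V5 against FLAG (same strand, at least 50% of the first interval covered, and only the shared part kept). The motif was computed with ViennaRNA 2.7.2 (window 70 nt, 50 nt of genomic sequence on either side, pairing of the U under 0.7 and of each of 5 stem bases over 0.5). Words of 25 nt were matched to transcripts of other genes. Python 3.11.15, numpy 2.4.6, pandas 2.3.3, scipy 1.17.1 and matplotlib 3.10.9 were used. Assignment, intersection and motif calls were tested on simulated data.

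Of the genes whose symbols fit, 1 was not analysed here and 1 is counted in the totals but not reported by name. The members, gene groups and lists were chosen with earlier results of these data known. The genes described are those with a reproducible interval, the 5 highest by the mean of both input maxima, the 3 with most peaks, the 3 with the largest difference between tags in each direction, the abundant genes and the highest of each family; ACTR1B, DYNC1H1, KIF1B, KIF3B, KIF5B, KIF5C, DYNC2I1, MAP1S, TUBB2B, CFL2, MYO6 and the genes of the list of regulators were named after their values were seen. Printing whole coding intervals and the central 30 bases of UTR intervals was also decided then. The alternatives were stricter thresholds, other overlaps, other regions and 1 value per gene or bound region. Counts of reads, gene expression and RNA-level assays other than these lists were not analysed here.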

Additional observations from a re-analysis of the deposited data

How the results depend on the processing

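Of 81 alternative values, 55 stayed within counting error or within 1.5 times the reported count, 25 moved and 1 changed sign. Most that moved came from a stricter threshold, which keeps fewer peaks. With an enrichment of at least 4, 15 genes had a peak in any list, 12 over the V5 input, 5 over the V5 empty vector, 10 over the FLAG input and 6 over the FLAG empty vector, and 3 reproducible intervals in 2 genes were left. With a −log10 p of at least 10 the counts of genes were 21, 16, 4, 16 and 5 in the same order. At the enrichment of 4 the microtubule shares were 33.3% in 3′ UTRs and 7.41% in 5′ UTRs (27 peaks), and the actin shares 25.0% in the CDS, 66.7% in 3′ UTRs and 0% in 5′ UTRs (12 peaks). With the highest peak of each gene alone the actin shares were 36.8% in the CDS and 52.6% in 3′ UTRs (19 genes). Without ACTR1A and KIF1A, an alternative chosen after seeing the data, as were the counts by bound region, the 3′ UTR share of microtubule peaks was 12.3%. Median enrichments moved to 3.78 (V5 input) and 3.72 (FLAG input) for the highest peak of each gene, and to 4.32 (V5 empty vector, 4 peaks), 3.73 (FLAG input) and 4.44 (FLAG empty vector, 6 peaks) at the −log10 p of 10. The median of FLAG minus V5 changed sign over the empty vector, to 0.33 in 8 genes; the cause was not tested. No paired analysis was possible because each list holds 1 merged value per peak, and for the same reason no replicate could be left out. Unknown depth means that a gene without a peak cannot be told from a gene with too few reads.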
